A study of Homo sapiens with 6 samples.

Results

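The genes of the proteasome were examined in a pooled CRISPR/Cas9 knockout screen of MDA-MB-231, an established human triple-negative breast cancer cell line. Members were all symbols that begin with PSMA, PSMB, PSMC, PSMD, PSME or PSMG followed by a digit, together with POMP. This gave 48 symbols with 197 sgRNAs, out of 107237 listed sgRNAs that target 18888 protein-coding genes and 1776 microRNAs or, for 993 of them, no target. PSMC3IP meets the naming rule but encodes a recombination factor that was named for binding a proteasome ATPase and is no subunit. PSMB3, a constitutive beta subunit, was not analysed here because the table used held no sgRNA for it.

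All cells expressed Cas9, carried the GeCKO v2 A and B libraries at an MOI of 0.3 and had been selected for 7 days with 1 µg/mL of puromycin. The groups differed in 1 step, 7 days with the vehicle DMSO or with 10 µM of the EGFR inhibitor erlotinib, after which the sgRNAs of the remaining cells were amplified from genomic DNA. Each group had 3 libraries, and the sources used here do not say whether these came from separate cultures, so p-values measure only the spread between libraries, which may be technical. The reverse primer, 13 for DMSO and 15 for erlotinib, changed with the condition, and the effects of the primer and the drug cannot be told apart. The counts are of sgRNAs and carry no expression, so the labelled cell line could not be checked against marker genes.

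Total counts were 1574743 to 4263494 in DMSO libraries and 1773235 to 3332895 in erlotinib libraries. In DMSO, 33.6% to 39.3% of all listed sgRNAs had at least 1 count, against 1.78% to 2.07% in erlotinib at similar depth. An sgRNA with 0 counts could be present at up to 3 counts, which is 0.704 to 1.91 CPM, that is counts per 1000000 of the library's total, in DMSO and 0.900 to 1.69 CPM in erlotinib, for counting error alone.

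The proteasome degrades proteins that are tagged with ubiquitin. Its core is a stack of alpha rings, encoded by PSMA genes, around beta rings, encoded by PSMB genes, in which PSMB5, PSMB6 and PSMB7 are the proteolytic subunits. A regulatory cap sits on the core. Its base holds the ATPases PSMC1 to PSMC6, which unfold substrates, and its lid holds the deubiquitinase PSMD14. In immune cells and after interferon, PSMB8, PSMB9 and PSMB10 replace PSMB5, PSMB6 and PSMB7 to give the immunoproteasome, PSMB11 takes the place of PSMB5 in the thymus, and PSMA8 replaces PSMA7 in the testis. The PSME genes encode alternative activators of the core, and POMP, the PSMG genes, PSMD5, PSMD9 and PSMD10 encode chaperones that build the particle. The constitutive subunits are needed by nearly all dividing human cells, whereas the immune, thymus and testis forms are not required outside their tissues.

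The sgRNAs of the proteolytic subunits and their immune counterparts are shown because the comparison of constitutive with immune genes rests on them. Each is written 5′ to 3′ as the 20 listed bases, and capitals mark the 12 bases next to the PAM, where mismatches are tolerated least.
PSMB5 sgRNA 1: catggcgcTTGCCAGCGTGT
PSMB5 sgRNA 2: cttatcccAGCCACAGATCA
PSMB8 sgRNA 1: aatcacctTGTTCACCCGTA
PSMB8 sgRNA 2: agctgggaGTAGTGTCACGC
PSMB8 sgRNA 3: aggctgtaCTATCTGCGAAA
PSMB8 sgRNA 4: ccggtactGGCACATCATGT
PSMB8 sgRNA 5: gcatccgcTGGAAACAGGGG
PSMB8 sgRNA 6: gtgcagcaGACTGTCAGTAC
PSMB6 sgRNA 1: cgatgatgATTCCCGCCATC
PSMB6 sgRNA 2: cgggaatcATCATCGCAGGC
PSMB6 sgRNA 3: cgtgcagtTTGACGGGGGCG
PSMB6 sgRNA 4: cttaccatCATACCCCCCAT
PSMB6 sgRNA 5: gcggactcCAGAACAACCAC
PSMB9 sgRNA 1: cagtagatGCGCTCGTGCAG
PSMB9 sgRNA 2: cgacatggCCGCCTACCAGC
PSMB9 sgRNA 3: ggaccaacGTGAAGGAGGTC
PSMB9 sgRNA 4: gtggatgcAGCATATAAGCC
PSMB9 sgRNA 5: tatcagctATAAATATCGAG
PSMB9 sgRNA 6: tccggcagCACCTTTATCTA
PSMB7 sgRNA 1: aaaactggCACGACCATCGC
PSMB7 sgRNA 2: catctgctTCAGCATCCGAT
PSMB7 sgRNA 3: gcagatacAAGAGCAACTGA
PSMB7 sgRNA 4: taataggaTGGCATAGTTCT
PSMB10 sgRNA 1: cgccacgaCCGAATCGTTAG
PSMB10 sgRNA 2: ggagctacACGCGTTATCTA
PSMB10 sgRNA 3: gtcccggtCTTGCGTGCGTG
PSMB10 sgRNA 4: taacgcgtGTAGCTCCATCT
PSMB10 sgRNA 5: tacgcgagCCACTAACGATT
PSMB10 sgRNA 6: tccctcacGCACGCAAGACC

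The alpha subunit PSMA7 and its testis counterpart PSMA8 form the remaining pair.
PSMA7 sgRNA 1: caaagtcgAAACCCACGATG
PSMA7 sgRNA 2: caagtcagTGCGCGAGTTCC
PSMA7 sgRNA 3: caggcctcACCGCCGATGCA
PSMA7 sgRNA 4: cgtcagtaTAGTTCTTCTCC
PSMA7 sgRNA 5: tcgactttGATGGCACTCCT
PSMA8 sgRNA 1: acttgaaaAAGGTGTCCGTC
PSMA8 sgRNA 2: atcatcaaAACCTACAATTA
PSMA8 sgRNA 3: caagcatgATAAGTACCAGA
PSMA8 sgRNA 4: cgatggcgTCTCGATATGAC

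Outside these pairs, 6 further proteasome sgRNAs had a count in an erlotinib library and are printed for that reason.
POMP sgRNA 4: ttcaagctCAAATCTTTCAC
PSMC2 sgRNA 5: ttctacttACCAGTGCTATT
PSMD1 sgRNA 4: tgtgatcaTCTAGACATCGC
PSMD9 sgRNA 4: tagccctcACAGTCCACCAG
PSME4 sgRNA 2: attcatgcTTGTGAGATCCT
PSMG3 sgRNA 3: ttctgcttCGATATCACCAA

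No listed sequence occurred more than once. Each proteasome sgRNA differed from every other listed sgRNA at 3 or more of its 20 bases, and sgRNAs of different proteasome genes differed at 4 or more, the closest being PSMA8 sgRNA 1 and PSMA3 sgRNA 1. Within genes, 9 pairs of sgRNAs shared a run of at least 10 bases on opposite strands and so have overlapping targets. Such pairs include PSMB6 sgRNA 1 with sgRNA 2, over 15 bases, and PSMB10 sgRNA 2 with sgRNA 4, over 16 bases.

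The constitutive subunits had fewer listed sgRNAs than other genes. The library was designed with 6 sgRNAs per gene, and protein-coding symbols had 5.31 listed on average, with 53.5% of them at 6. The 30 constitutive subunit genes had 3.47 ± 1.28 (SD over genes), and PSMA2, an alpha subunit, was the only one of them at 6. For 14 of the 30, or 46.7%, 3 or fewer sgRNAs were listed, against 4.8% of protein-coding symbols. The remaining 18 members had 5.17 on average. PSMB8, PSMB9 and PSMB10 each had all 6, while PSMB5 had 2, PSMB6 had 5 and PSMB7 had 4. The alpha subunit PSMA4 had 1, and PSMA3, PSMA5, PSMA6, PSMD14, PSMD2, PSMD3 and PSMD7 had 2 each. The 83 genes of the cytosolic ribosome, another large essential complex, had 3.71 on average, and the 372 olfactory receptor genes, which serve the sense of smell, had 5.47. Every share below that is taken over listed sgRNAs leaves out what was not listed.

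**Figure D1:**
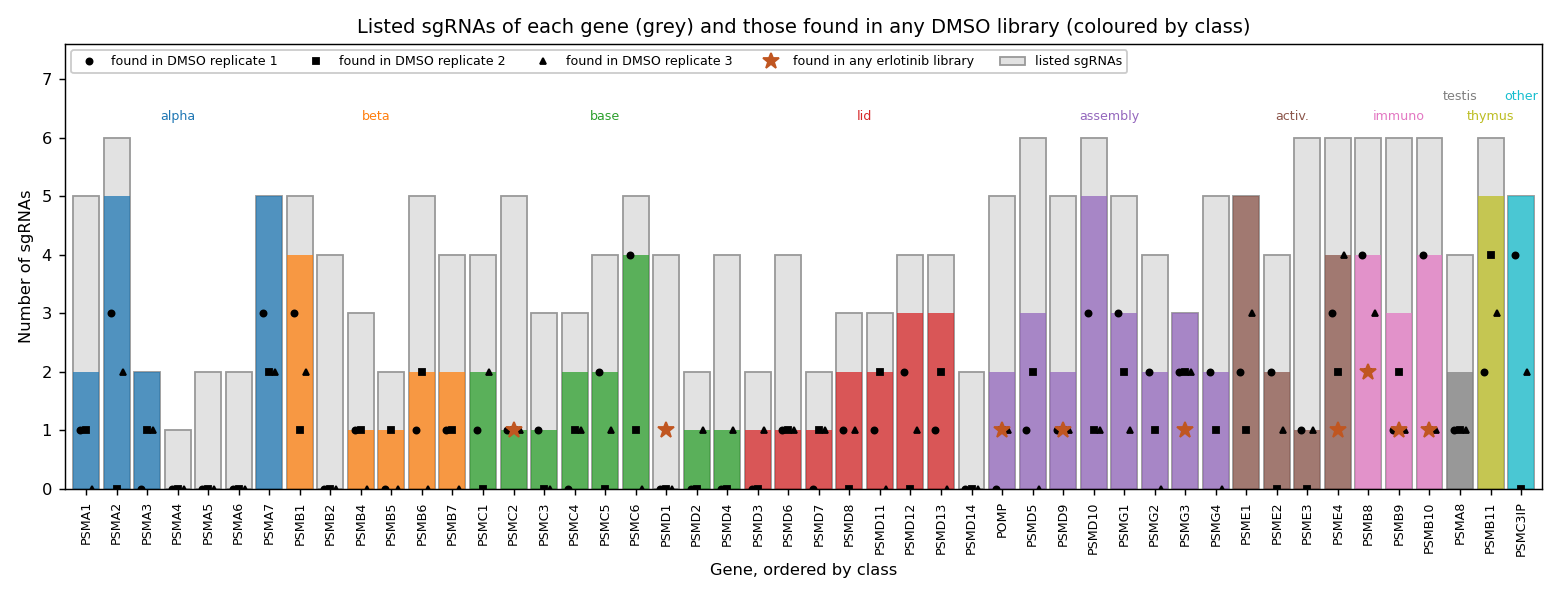
Number of sgRNAs of each proteasome gene (vertical axis), with genes grouped by class along the horizontal axis. Grey bars are listed sgRNAs, coloured bars those with at least 1 count in any DMSO library, black symbols the number found in each DMSO replicate and orange stars the number found in any erlotinib library. PSMB8, PSMB9 and PSMB10 reach 6 listed sgRNAs, whereas PSMA4 has 1, and PSMA4, PSMA5, PSMA6, PSMB2, PSMD1 and PSMD14 have no coloured bar.

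In each DMSO library, sgRNAs of the constitutive subunits were found at a lower share than those of protein-coding genes as a whole. Of their 104 listed sgRNAs, 28, 19 and 19 had a count in replicates 1, 2 and 3, which is 26.9%, 18.3% and 18.3%. The mean was 21.2% ± 4.996 (SD, n = 3 libraries), against 35.7% ± 3.02 of the sgRNAs of all protein-coding genes. The constitutive share was lower in 3 of 3 libraries, by 14.5 ± 2.09 percentage points. For comparison, the share was 26.3% ± 2.54 for the cytosolic ribosome, 38.1% ± 2.83 for olfactory receptors and 56.9% ± 4.40 for non-targeting sgRNAs. The constitutive subunits lay below the cytosolic ribosome in every DMSO library, with differences of −0.999, −5.11 and −9.33 points.

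Core, base and lid differed by less than the spread between libraries. Core subunits were found at 21.7% ± 6.52, base subunits at 18.6% ± 8.99 and lid subunits at 23.6% ± 2.41 of listed sgRNAs. Each library ordered these 3 assemblies in its own way. In replicate 1 the core led with 28.3% and the lid was lowest with 25.0%, in replicate 2 the lid led with 25.0% and the base was lowest with 8.82%, and in replicate 3 the core was lowest with 15.2%. Within the core, the alpha ring was found at 23.2% ± 6.64 and the beta ring at 20.3% ± 10.0. Within the base, the 6 ATPases were found at 23.6% ± 12.7, while the scaffold subunits PSMD1 and PSMD2 and the ubiquitin receptor PSMD4 together gave 0, 0 and 2 of 10 sgRNAs.

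Of the 30 constitutive genes, 6, or 20%, had 0 counts in all 3 DMSO libraries. This compares with 1.01% of protein-coding symbols and 7.23% of cytosolic ribosome genes. The 6 were the alpha subunits PSMA4, PSMA5 and PSMA6, the beta subunit PSMB2, the base scaffold PSMD1 and the deubiquitinase PSMD14. They had 1, 2, 2, 4, 4 and 2 listed sgRNAs in this order. All but PSMD1 also had 0 in erlotinib. No member outside the constitutive particle was at 0 in DMSO, which is close to the 1.01% of protein-coding symbols. At the other end, the alpha subunit PSMA7 had 3, 2 and 2 of its 5 sgRNAs in the DMSO replicates and all 5 in at least 1 of them. The beta subunit PSMB1 had 3, 1 and 2 of 5, and the ATPase PSMC6 had 4, 1 and 0 of 5. In the lid the largest mean share belonged to PSMD11, with 1, 2 and 0 of 3, and PSMD7, with 0, 1 and 1 of 2. The constitutive genes thus ranged from 0 of 4 sgRNAs for PSMB2 to 5 of 5 for PSMA7 over the DMSO libraries.

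**Figure D2:**
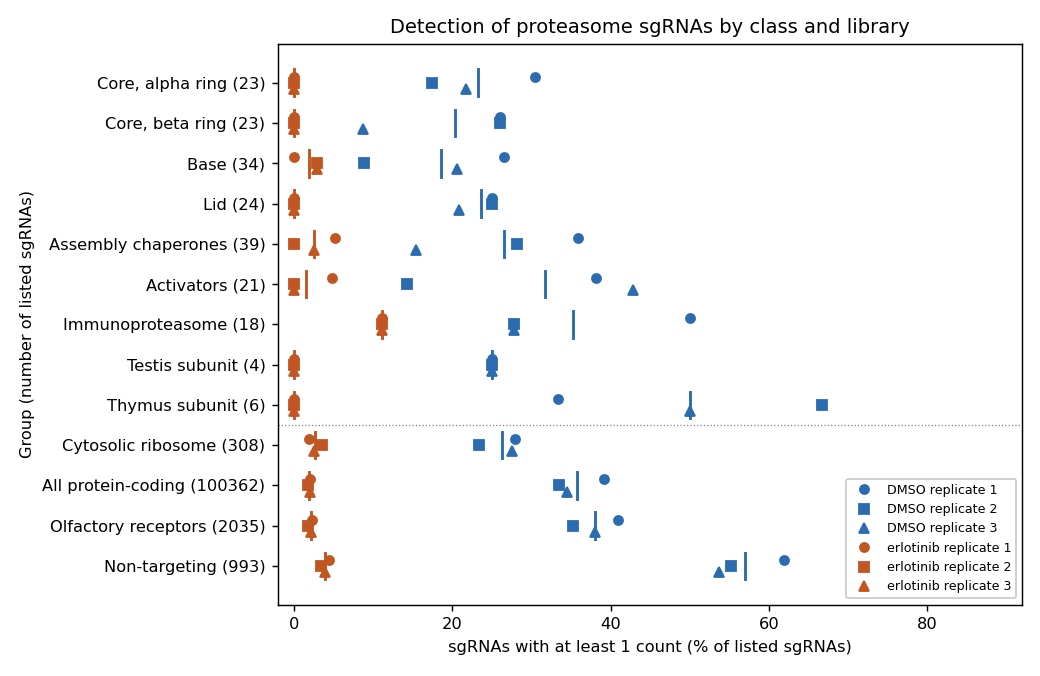
Share of listed sgRNAs with at least 1 count (horizontal axis, %) for each class of proteasome gene and, below the dotted line, for reference groups, with the number of listed sgRNAs in brackets. Symbols are single libraries and vertical bars the means of the 3 DMSO (blue) or 3 erlotinib (orange) libraries. Core, base and lid overlap between 8.70% and 30.4% in DMSO, the immunoproteasome lies at 27.8% to 50.0%, and all erlotinib shares are at or under 11.1%.

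The immunoproteasome genes were found at a higher share than the constitutive genes in each DMSO library. Of the 18 sgRNAs of PSMB8, PSMB9 and PSMB10, 9, 5 and 5 had a count, which is 50.0%, 27.8% and 27.8%, with a mean of 35.2% ± 12.8. The difference from the constitutive subunits was 23.1, 9.51 and 9.51 percentage points, or 14.03 ± 7.83 on average, so replicate 1 carried much of it. Their share differed from that of all protein-coding genes by −0.510 ± 9.87 points, which is less than the spread between libraries. Against their direct counterparts PSMB5, PSMB6 and PSMB7, which had 2, 4 and 0 of 11 sgRNAs, the difference was 31.8, −8.59 and 27.8 points and so changed sign in replicate 2. When the 6 designed sgRNAs per symbol were used in place of the listed ones, a choice made after the counts were seen, the constitutive share was 12.2% ± 2.89 and the difference 23.0 ± 9.94 points. The number of listed sgRNAs moved with the class, and its part in these differences was not tested.

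The tissue forms as a group gave a steadier difference. Over the immune, testis and thymus genes, 12, 10 and 9 of 28 sgRNAs had a count, and their share exceeded that of the constitutive subunits by 15.9, 17.4 and 13.9 points, or 15.8 ± 1.79 on average. Of the 28, 18 were the immunoproteasome sgRNAs above. Their mean share, 36.9% ± 5.46 for all 28, lay near the 35.7% ± 3.02 of all protein-coding sgRNAs. Those exceeded the constitutive share by a similar 14.5 ± 2.09 points. PSMB11, the thymus subunit, contributed 2, 4 and 3 of 6 sgRNAs, a mean of 50.0% ± 16.7. PSMA8 of the testis had 1 of 4 sgRNAs in each replicate, namely sgRNA 2 with 101 and 72 counts in replicates 1 and 2, and sgRNA 1 with 35 in replicate 3. Its counterpart PSMA7 was therefore found at a higher share than PSMA8 in 3 of 3 libraries.

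The mean shares of activators and chaperones lay between those of the constitutive and immunoproteasome subunits. Activators were found at 31.7% ± 15.3 of 21 sgRNAs, led by PSME4, an activator of the core that acts in the nucleus and in spermatogenesis, with 3, 2 and 4 of 6. PSME3, the nuclear activator, had the lowest share of its class, with 1, 0 and 1 of 6. Assembly chaperones were found at 26.5% ± 10.4 of 39 sgRNAs. Those of the core, POMP and PSMG1 to PSMG4, gave 30.3% ± 11.4, and those of the base, PSMD5, PSMD9 and PSMD10, gave 21.6% ± 8.99, in the same order in all 3 libraries. PSMG3, a core chaperone, had 2 of 3 sgRNAs in each library, while POMP had 0, 1 and 1 of 5. The difference from the constitutive subunits was 10.6 ± 14.3 points for activators and 5.34 ± 7.14 for chaperones, both within the spread between libraries.

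Few sgRNAs recurred between DMSO libraries, those of the proteasome included. Of 108 members with a count in any of them, 72 were in 1 library, 26 in 2 and 10, or 9.26%, in all 3, next to 10.9% of the protein-coding sgRNAs found. The 10 were 2 sgRNAs each of PSMB8 and PSME4 and 1 each of PSMB1, PSMB10, PSMC2, PSMD6, PSMG1 and PSMG3. Of the 10, 3 targeted constitutive subunits, which held 51 of the 108. PSMB1 sgRNA 3 had 38, 68 and 137 counts, PSMC2 sgRNA 5 had 140, 43 and 26, and PSMD6 sgRNA 4, in a lid gene, had 35, 1 and 63. Mean GC content was 47.8% in members found in DMSO and 49.3% in members not found. It differed more between classes, at 48.0% for constitutive and 55.0% for immunoproteasome sgRNAs, with 52.0% for all protein-coding sgRNAs.

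In erlotinib, 10 proteasome sgRNAs of 9 genes had a count, and each library held 5, 3 or 4 of them. This is 2.54%, 1.52% and 2.03% of the listed members, next to 2.07%, 1.78% and 2.04% of all listed sgRNAs. Of the 108 member sgRNAs found in DMSO, 103, or 95.4%, had 0 counts in every erlotinib library, against 94.0% of all targeting sgRNAs found in DMSO. Of the 10, 8 were in 1 erlotinib library and 2 were in 2. No count in any DMSO library was found for 5 of the 10, whereas this held for 21.9% of all targeting sgRNAs with an erlotinib count.

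Single sgRNAs at high counts made up the erlotinib signal. POMP sgRNA 4, against the maturation chaperone of the core, reached 17233 counts in erlotinib replicate 1 and was at 0 in all 5 remaining libraries. It held 0.850% of that library and ranked 5 among its sgRNAs. PSMB8 sgRNA 6 had 69, 91 and 40 counts in DMSO and 1, 2968 and 0 in erlotinib. PSMC2 sgRNA 5 reached 1407 counts in erlotinib replicate 3, with none in replicates 1 and 2. PSMD9 sgRNA 4, against a base chaperone, had 1146 counts in replicate 3 and 0 elsewhere. PSMB9 sgRNA 2 was the only one with more than 1 count in several erlotinib libraries, with 0, 192 and 135 there and 0, 38 and 115 in DMSO. The others had 72 counts (PSMB10 sgRNA 1), 66 (PSMB8 sgRNA 3), 30 (PSMG3 sgRNA 3) or 1 (PSMD1 sgRNA 4 and PSME4 sgRNA 2), each in 1 library.

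**Figure D3:**
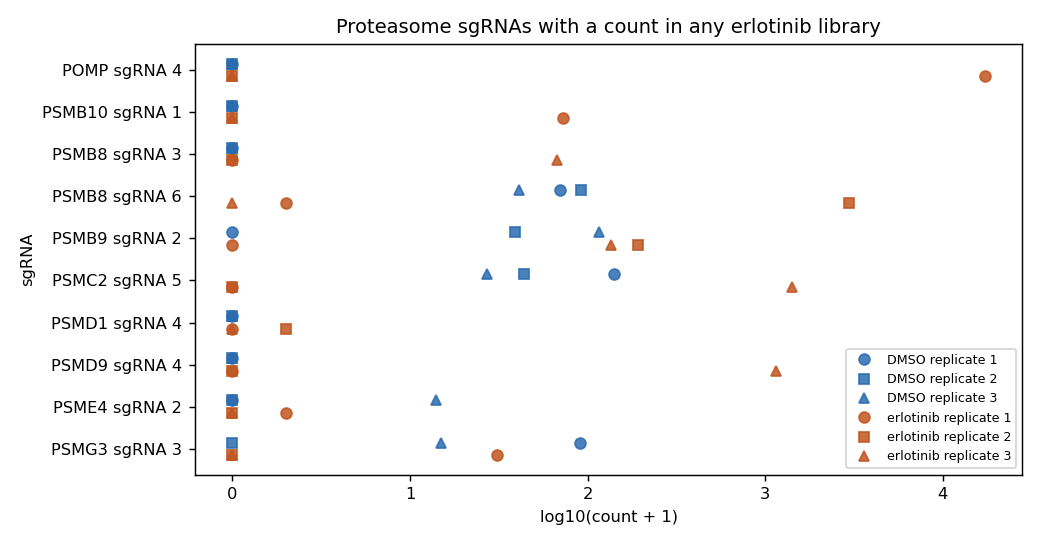
Counts of the 10 proteasome sgRNAs with a count in any erlotinib library, drawn as log10(count + 1) on the horizontal axis, with DMSO libraries in blue and erlotinib libraries in orange and a symbol for each replicate. The highest points, POMP sgRNA 4 at 17233 and PSMB8 sgRNA 6 at 2968 counts, each lie in a single erlotinib library while the same sgRNA is at 0 or 1 count in the other erlotinib libraries.

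By class, all 3 immunoproteasome genes had an erlotinib count, compared with 2 of 30 constitutive genes, PSMC2 and PSMD1, and 24.9% of protein-coding symbols. Neither ring of the core and no lid gene had any erlotinib count, so all 46 core and 24 lid sgRNAs were under the 3-count floor there. Of the 18 immunoproteasome sgRNAs 4 were found, 2 in each library, giving 11.1% in each. Where at least 3 counts were asked for, these genes had 1, 2 and 2 of 18, with all 3 still found, and PSMC2 alone remained of the constitutive genes. These shares rest on few sgRNAs and are a description without a test.

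**Figure D4:**
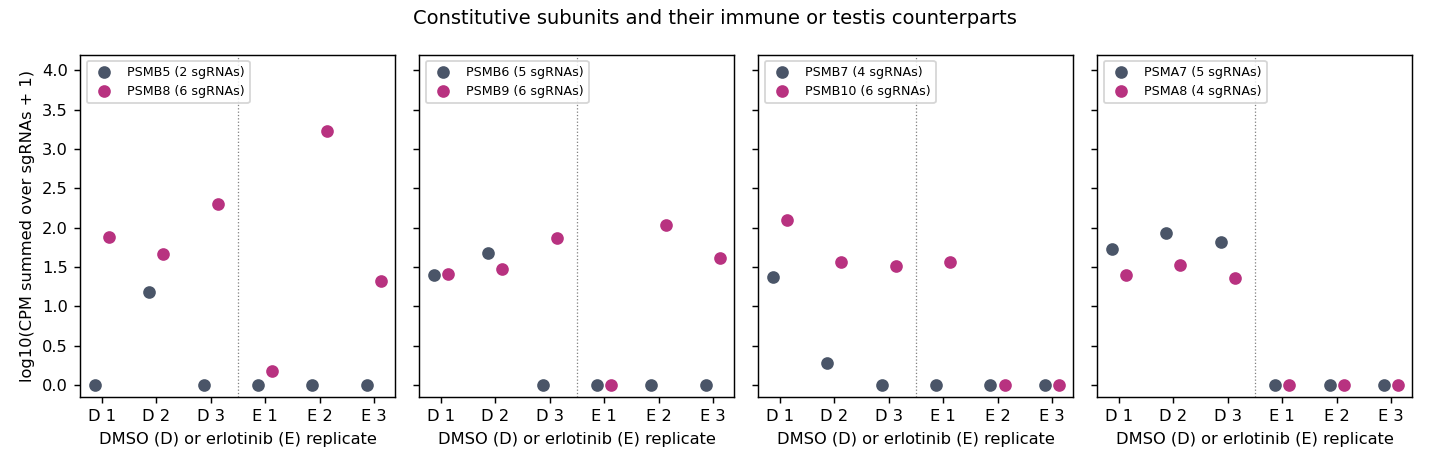
Summed CPM of all sgRNAs of each gene, as log10(CPM + 1) on the vertical axis, in DMSO (D) and erlotinib (E) replicates 1 to 3 for PSMB5 and PSMB8, PSMB6 and PSMB9, PSMB7 and PSMB10, and PSMA7 and PSMA8. Grey points are constitutive and pink points immune or testis genes. The constitutive genes and PSMA8 are at 0 in all erlotinib libraries, and PSMB8, PSMB9 and PSMB10 are above 0 in 3, 2 and 1 of them.

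Counts were then summed over the sgRNAs of each gene and compared between erlotinib and DMSO with edgeR's quasi-likelihood test. Of all 20409 symbols with a count, 69.2% were lower in erlotinib and 0.0% higher, at a p under 0.05 after Benjamini-Hochberg adjustment. Of the 43 proteasome genes with a count, 20 fell, or 46.5%, while 0 rose and 23 were not called. Without DMSO replicate 1, 10 of 42 members fell, or 23.8%, against 56.6% of all symbols in that fit. In the full set of libraries, the gap between members and all symbols went both ways with other settings. It was smaller with the likelihood ratio test, at 72.1% of members against 75.7%, and with DESeq2, at 65.1% against 73.3%. DESeq2 gave an adjusted p to 17987 of the 20409 symbols. The gap was wider when libraries were scaled by the total count alone, at 30.2% against 61.1%. The members' median log2 fold change was −10.19 against −11.28 for all symbols. These fitted values depend on how 0 counts are treated, since 39 of the 48 members were at 0 in erlotinib, and scaling by the total count alone moved the median of all symbols to −9.32. In CPM, all 3 erlotinib libraries lay below all 3 DMSO libraries for 10 of the 43 members, against 56.7% of all symbols.

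Among constitutive subunits 12 of 25 tested genes fell, or 48%, against 69.2% of all symbols. The 12 were made up of 3 of 4 alpha, 2 of 5 beta, 3 of 9 base and 4 of 7 lid genes. PSMA7 summed to 52.3, 83.4 and 64.1 CPM in DMSO and 0 in each erlotinib library, at least 49.1-fold lower when the DMSO mean is set against the mean erlotinib floor of 3 counts per library (adjusted p = 0.00385, edgeR). For PSMB1, at 55.6, 30.8 and 109 CPM in DMSO and 0 in erlotinib, the bound was at least 48.0-fold lower (edgeR adjusted p = 0.00385), or 31.8-fold without DMSO replicate 3. PSMC6 summed to 142, 21.3 and 0 CPM in DMSO and 0 in erlotinib, a bound of at least 40.0-fold that was 7.85-fold without DMSO replicate 1, with an adjusted p of 0.0309 in edgeR that rose to 0.118 without DMSO replicate 1 and 0.0658 without replicate 2. PSMB6 at 24.2, 46.7 and 0 CPM (adjusted p = 0.0359, edgeR) and PSMD11 at 40.1, 30.4 and 0 CPM (adjusted p = 0.0354, edgeR) lost their calls in 5 of the 6 fits that left out 1 library. PSMD7, at 0, 11.8 and 22.2 CPM in DMSO and 0 in erlotinib, was not called (adjusted p = 0.0685, edgeR), except without DMSO replicate 1 (adjusted p = 0.0377, edgeR). Of all 43 members tested, 15 had counts in all 3 DMSO libraries, and 9 of the 20 that fell were among them.

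None of the 3 immunoproteasome genes was called, while 69.2% of all symbols were called lower. Of all 43 members tested, 23 were not called. PSMB8 summed to 75.5, 44.9 and 201 CPM in DMSO and 0.493, 1674 and 19.8 CPM in erlotinib (adjusted p = 0.921, edgeR), so 1 erlotinib library lay above and 2 below all DMSO values. PSMB9 summed to 25.1, 28.6 and 73.0 CPM in DMSO and 0, 108 and 40.5 CPM in erlotinib (adjusted p = 0.265, edgeR), and the groups overlapped. PSMB10 summed to 123, 35.8 and 31.8 CPM in DMSO and 35.5, 0 and 0 CPM in erlotinib (adjusted p = 0.109, edgeR). Without the erlotinib library that held most of its counts, PSMB8 was called lower (replicate 2 left out, adjusted p = 0.0364, edgeR), and so was PSMB10 (replicate 1 left out, adjusted p = 0.00533, edgeR). Of the counterparts, PSMB6 fell, while PSMB5, at 0, 14.1 and 0 CPM in DMSO, and PSMB7, at 22.5, 0.907 and 0 CPM, were not called (adjusted p = 0.130 and 0.0845, edgeR). Both were at 0 in erlotinib and had counts in 1 or 2 DMSO libraries.

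Both remaining tissue forms fell, as did 69.2% of all symbols. PSMB11 summed to 57.9, 104 and 56.5 CPM in DMSO and 0 in erlotinib, at least 53.6-fold lower (adjusted p = 0.00385, edgeR). PSMA8 summed to 23.7, 32.6 and 22.2 CPM in DMSO and 0 in erlotinib, at least 19.3-fold lower (adjusted p = 0.00625, edgeR). Neither gene's DMSO and erlotinib values overlapped, which also held for 56.7% of all symbols. Both calls held in each fit that left out 1 library. With a block for the replicate number both were lost (adjusted p = 0.173 and 0.174, edgeR), and 0 of all symbols were called.

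Among activators 2 of 4 genes fell, PSME1 and PSME4. Among chaperones 3 of 8 fell, PSMD10, PSMG1 and PSMG2. Of all symbols, 69.2% fell. PSME4 summed to 67.1, 51.7 and 104 CPM in DMSO and 0.493, 0 and 0 CPM in erlotinib (adjusted p = 0.00385, edgeR). PSME3 had 24.2, 0 and 8.26 CPM in DMSO and was not called (adjusted p = 0.0637, edgeR), except without DMSO replicate 2 (adjusted p = 0.0413, edgeR). PSMG3 had 49.3, 109 and 18.4 CPM in DMSO against 14.8, 0 and 0 CPM in erlotinib, groups that did not overlap, and was also not called (adjusted p = 0.0587, edgeR). POMP had 0, 36.7 and 44.5 CPM in DMSO against 8502, 0 and 0 CPM in erlotinib (adjusted p = 0.507, edgeR). PSMD9 had 25.6, 17.7 and 2.54 CPM against 0, 0 and 344 CPM (adjusted p = 0.994, edgeR), and PSMC2 had 32.8, 19.5 and 16.5 CPM against 0, 0 and 422 CPM (adjusted p = 0.928, edgeR). For each of these 3, a single erlotinib library lay above all DMSO values and the others were at 0. Without erlotinib replicate 3, PSMD9 and PSMC2 were called lower (adjusted p = 0.0453 and 0.0171, edgeR), and without erlotinib replicate 1 so was PSMG3 (adjusted p = 0.00557, edgeR). PSMD1 had 0 CPM in DMSO and 1 count in erlotinib (adjusted p = 0.636, edgeR). PSMC3IP, which is no subunit, had 84.7, 0 and 57.2 CPM in DMSO and fell to 0 in erlotinib (adjusted p = 0.0290, edgeR), a call that was lost without DMSO replicate 1 or 3.

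Tested one by one, no proteasome sgRNA passed. Of 113 member sgRNAs with a count, edgeR's quasi-likelihood test called 0 lower at an adjusted p under 0.05. It called 0.0% of all 74555 tested sgRNAs. The smallest adjusted p was 0.0998 among members and also over all sgRNAs (edgeR). The fitted dispersion, a measure of the spread between libraries, was 9.74 for sgRNAs and 3.10 for genes. Since this fit called no sgRNA of any gene, the lack of calls sets no member apart. At an unadjusted p under 0.05, 28 of the 113 members were lower, against 31.2% of all sgRNAs, and 1 was higher, PSMD9 sgRNA 4, against 0.699%. The likelihood ratio test at an unadjusted p under 0.05 gave 34 of the 113 members as lower, against 36.6% of all sgRNAs. DESeq2 called 0 members lower and 1 higher, PSMB10 sgRNA 1 with its 72 counts in a single erlotinib library (adjusted p = 5.46e-08, DESeq2). It called 50 sgRNAs higher in all, or 0.0671% of the 74555, but gave an adjusted p to only 13946 of them. Without DMSO replicate 2, edgeR called 16 members lower, or 16.7% against 19.3% of all sgRNAs tested. Without DMSO replicate 3 it called 19, or 20% against 22.9%. In that last fit it also called 1 member higher, and 303 of all 62325 sgRNAs tested.

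Other genes of the ubiquitin-proteasome route were taken from a list of 36 symbols, of which 33 were listed in the table. Their sgRNAs were found at 30.8% ± 5.70 in DMSO, and 23 of the 33 genes fell in erlotinib, with 0 higher. This is 69.7%, next to 69.2% of all symbols. The list holds, among others, the p97 unfoldase and its cofactors, shuttle factors that carry ubiquitinated proteins to the proteasome, and proteins bound to the particle.

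Of the 33 genes, 5 had an erlotinib count, again each in 1 library. PSMF1, a proteasome inhibitor protein outside the naming rule, had 189, 306 and 0 counts in DMSO and 1673 in erlotinib replicate 1. AKIRIN2, which brings proteasomes into the nucleus, had 207, 131 and 6 counts in DMSO and 957 in erlotinib replicate 1. NPLOC4, a p97 cofactor, had 195, 110 and 34 counts in DMSO and 320 in erlotinib replicate 1. UBE3C, a ubiquitin ligase of the proteasome, had 111 counts in erlotinib replicate 3, and the p97 cofactor FAF1 had 1 there. FAF1 fell (adjusted p = 0.00385, edgeR), and the other 4 were not called.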

How the data were processed

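The members, classes and gene lists were chosen with earlier results of these data known, so no p-value is given for a class or list. The authors deposited whole-number counts per sgRNA of 20 bases for each library, not normalized. The program that made them is not given in the sources used here, and neither a genome build nor positions of target sites were used. Every sgRNA with at least 1 count was taken as detected. CPM are counts per 1000000 of a library's total. Detection shares are means ± SD over the 3 libraries of a condition. RefSeq held all 48 member symbols. Some genes of the list of other pathway genes are not reported here by name.

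Counts were tested with non-targeting sgRNAs left out, summed per symbol or per sgRNA, over features with at least 1 count, by edgeR's quasi-likelihood test with upper-quartile normalization at the 0.99 quantile and a Benjamini-Hochberg adjusted p under 0.05 over all features tested. Named genes were the constitutive and tissue-specific pairs, PSMB11, PSMD14, POMP, the members with the largest and smallest DMSO share of each class, and genes with an erlotinib count. The 10 sgRNAs found in all DMSO libraries, genes at 0 and those with few listed sgRNAs were chosen by name once the counts had been seen. The normalization was exchanged for TMM, for the size factors of DESeq2, for library totals or for totals of non-targeting sgRNAs. Further alternatives were other filters, the Wald test of DESeq2, the likelihood ratio test, a block for the replicate number, each library left out, detection at 3 or 10 counts, equal depth, GC limits and, added after the counts were seen, a denominator of 6, erlotinib detection of classes at 3 counts and fold bounds without each DMSO library. Versions were R 4.3.3, edgeR 4.0.16, limma 3.58.1, DESeq2 1.42.0, matplotlib 3.10.9, pandas 2.3.3 and numpy 2.4.6 under Python 3.11.15.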

Additional observations from a re-analysis of the deposited data

How the results depend on the processing

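The DMSO shares and the immune minus constitutive difference moved by less than 1 SD with at least 3 or 10 counts, at the depth of the shallowest library and with 8 to 14 G or C bases. Leaving out 1 library gave 18.3% to 22.6% for constitutive subunits, 27.8% to 38.9% for the immunoproteasome, 22.3% to 28.2% for all members and 9.51 to 16.3 points for the difference, and 1.78% to 2.28% for all members in erlotinib. With 6 sgRNAs per symbol as denominator the values were 12.2%, 17.8% for all members in DMSO, 1.39% in erlotinib and 23.0 points. No sequence was listed under several symbols, so that alternative changed nothing.

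The count of 20 member genes lower in erlotinib was 13 with total-count scaling (30.2%, all symbols 61.1%) and 9 of 15 tested with filterByExpr (60.0%, all 72.2%). It was 31 with the likelihood ratio test (72.1%, all 75.7%). With 1 library left out it was 10 to 17 (23.8% to 40.5%, all 56.6% to 67.1%). For sgRNAs the count of 0 became 6 of 10 tested with filterByExpr (60.0%, all sgRNAs 75.8%). With 1 library left out it was 0 to 19 (0% to 20%, all sgRNAs 0% to 22.9%). With the replicate number as a block, 0 members were lower, and so were 0 of all 20409 symbols (smallest adjusted p 0.173 in edgeR). At an unadjusted p under 0.05 in that edgeR fit, 5 of 43 members were lower, against 21.3% of all symbols. Same-numbered libraries shared a forward primer, 62, 63 and 64 for replicates 1, 2 and 3. Their deviations from the condition means correlated at −0.00135 to 0.0110. Most symbols were at 0 in erlotinib, so this check cannot tell whether the numbers pair the libraries. The cause of these shifts was not tested.

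Of the named proteasome genes not called as reported, 5 changed sign. POMP (log2 fold change 3.99) was −6.44 with the block and −10.82 without erlotinib replicate 1, and up to 4.58 with another library left out. PSMB8 (−0.29) was 0.83 with TMM, 2.40 with total-count and 2.09 with non-targeting scaling, and 0.28 to 0.40 without DMSO replicate 3 or erlotinib replicate 1 or 3, but −6.19 without erlotinib replicate 2. PSMB9 (−2.49) was 0.24 with total-count and 0.053 with non-targeting scaling. PSMC2 (−0.28) was 1.16 with TMM, 0.85 with DESeq2 size factors, 2.61 with total-count and 2.72 with non-targeting scaling, and 0.14 to 0.30 without DMSO replicate 1 or erlotinib replicate 1 or 2, but −10.31 without erlotinib replicate 3. PSMD9 (−0.02) was 1.46, 1.12, 2.90 and 3.02 with these scalings, 1.12 in DESeq2, and 0.041 to 0.63 without DMSO replicate 1 or 2 or erlotinib replicate 1 or 2, but −9.75 without erlotinib replicate 3. Genes outside the naming rule changed sign too. The alternatives spanned −11.41 to 3.78 for AKIRIN2 (−0.77), −11.45 to 2.15 for NPLOC4 (−2.39) and −12.10 to 3.87 for PSMF1 (−0.65). Depth limits the rest: an sgRNA with 0 counts could be present at up to 3, and values that rest on 1 count are weak.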
